A study of Mus musculus with 6 samples.

Results

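The genes described here are 10 regulators and products of the epithelial-mesenchymal transition in small intestinal organoids that carry an inducible reprogramming cassette. They were chosen by name: the transcriptional repressors Snai1, Snai2, Snai3, Zeb1, Zeb2 and Twist1, the mesenchymal products Vim and Fn1, and the epithelial genes Epcam and Esrp1. All 10 were found by symbol among the 55416 genes of the deposited tables, and 6 of them (Snai1, Snai3, Vim, Fn1, Epcam and Esrp1) were among the 16975 genes with enough reads to be tested. Fn1 rose from a low level to a moderately abundant transcript at both doses of doxycycline, while Vim fell by a factor that grew with dose. The repressors stayed below 1 TPM (transcripts-per-million, a level per unit length) in all 6 libraries. Epcam fell and Esrp1 rose, each by less than 1.5-fold, at the higher dose.

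In an epithelial-mesenchymal transition, cells lose their junctions and apical-basal polarity and take on the shape, matrix and filaments of migratory cells. Zinc finger repressors of the SNAI and ZEB families bind E-box sequences in the promoters of epithelial genes and recruit histone-modifying corepressors there, and TWIST1, a basic helix-loop-helix factor, acts in the same programme. ESRP1 is a splicing factor that maintains epithelial isoforms, EPCAM is an adhesion protein of the epithelial surface, VIM is the intermediate filament of mesenchymal cells, and FN1 is a matrix glycoprotein that integrins bind. In the healthy intestine the SNAI, ZEB and TWIST genes, Vim and Fn1 are known mainly from the stroma, and Epcam and Esrp1 from the epithelium.

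The organoids were grown in IntestiCult from intestinal epithelial cells of mice 4 to 8 weeks old that were Rosa26-rtTA Tg/Tg and also Col1A1-TetO-OSKM Tg/Tg. Every group, the control included, carries both alleles: a transactivator at Rosa26 and, at Col1A1, a doxycycline-driven cassette of the reprogramming factors Oct4 (Pou5f1), Sox2, Klf4 and Myc. The control group received no doxycycline, while 0.1 µg/ml was given to the low-dose group and 0.5 µg/ml to the high-dose group, each for 3 days, so the drug itself and the factors cannot be told apart. Each group has 2 libraries, described as biological replicates; the labels do not say whether they came from separate mice or organoid lines, so the p-values measure the spread between these libraries.

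Libraries held 45289708 to 72547709 expected counts. Among the 4 induced factors, Pou5f1 followed the labels: its mean was 0.191, 139 and 499 counts-per-million (CPM) in the control, low-dose and high-dose libraries. A gene is called here at an adjusted p under 0.05 in edgeR's quasi-likelihood test, with Benjamini-Hochberg adjustment over all genes tested, and errors of log2 fold changes are standard errors. Among all tested genes, the high-dose group differed from control in 67.5%, 34.4% higher and 33.1% lower. The low-dose group differed from control in 34.6% of genes, 20.8% higher and 13.8% lower, and the doses differed in 58.9%, 29.8% higher and 29.1% lower at the higher dose. Against these backgrounds, 6 of the 6 tested genes of the 10 were called at the high dose. Snai1, Fn1 and Esrp1 were higher there, and Snai3, Vim and Epcam lower. At the low dose and between the doses 4 of 6 were called, each time Fn1 and Esrp1 higher, Vim and Epcam lower. Over the alternative analyses 4 to 6 were called at the high dose, 3 in each at the low dose, where Esrp1 was lost, and 3 to 4 between the doses. The number of the 10 genes tested differed between alternatives. The stricter count filter and limma left out Snai1 and Snai3. The fit of every gene with at least 1 count tested all 10 genes, and at the high dose it called Snai2 but not Snai1. The 3 comparisons share libraries and are not independent of each other.

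RefSeq promoter windows, from 250 bases before to 50 after the start of a transcript on GRCm38.p6, were at hand for 5 of the 10 genes (Vim, Zeb2, Snai1, Twist1 and Epcam). Those of Vim and Epcam are shown because both genes were called lower, and because the SNAI and ZEB repressors are known to bind the E-box CACCTG (reverse strand CAGGTG), in capitals. Both windows lie on the plus strand, the Vim window at chr2:13574061-13574360 and the Epcam window at chr17:87635729-87636028.
Vim: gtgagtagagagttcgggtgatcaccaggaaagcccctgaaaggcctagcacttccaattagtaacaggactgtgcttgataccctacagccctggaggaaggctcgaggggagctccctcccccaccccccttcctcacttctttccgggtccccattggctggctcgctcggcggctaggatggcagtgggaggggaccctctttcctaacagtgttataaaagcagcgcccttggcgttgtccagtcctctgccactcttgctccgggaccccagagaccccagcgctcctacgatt
Epcam: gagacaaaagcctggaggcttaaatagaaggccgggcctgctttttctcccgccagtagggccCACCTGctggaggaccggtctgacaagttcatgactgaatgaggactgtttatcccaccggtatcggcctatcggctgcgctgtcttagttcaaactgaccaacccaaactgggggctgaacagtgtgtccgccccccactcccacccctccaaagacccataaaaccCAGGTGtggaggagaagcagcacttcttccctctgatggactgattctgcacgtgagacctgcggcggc
The Epcam window holds 2 matches, starting at positions -187 and -19 from the transcript start, and the Vim window holds none. The Snai1 window holds 1 match at -126, and 20.2% of 32851 RefSeq mouse promoter windows of this length hold at least 1. Windows were also searched on both strands for the Myc E-box CACGTG, present in 7.15% of all windows, ATGCAAAT in 1.74%, CATTGT in 12.6% and CACACCC in 7.95%. Epcam has 1 CACGTG at position 31 after the start, and the Vim window has none of these motifs. A match is a stretch of letters and no evidence of binding.

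**Figure D1:**
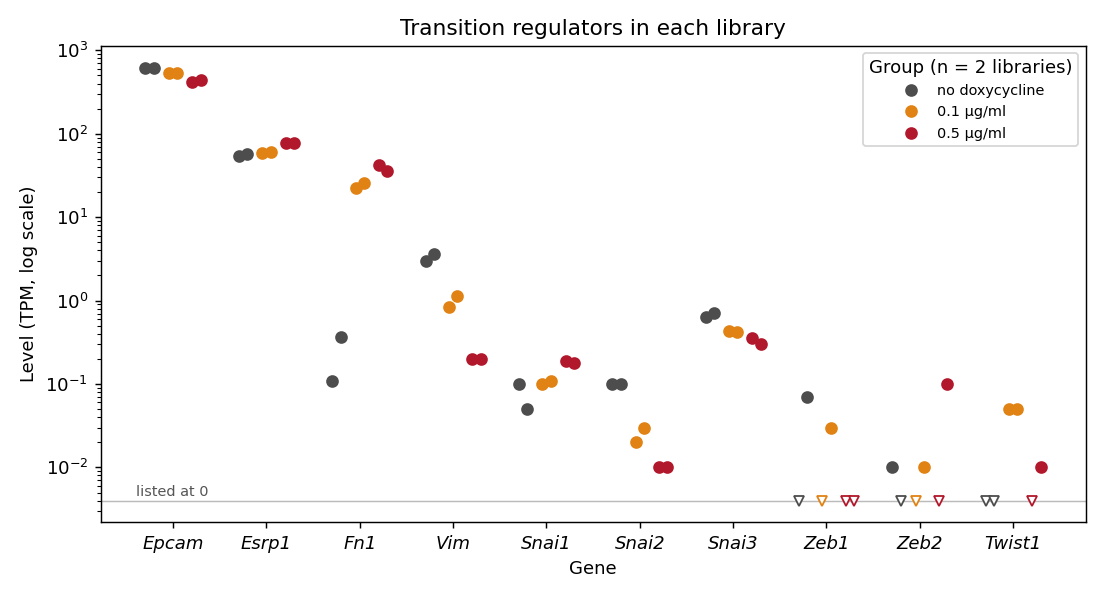
TPM of the 10 genes (log axis) in each of the 6 libraries, coloured by dose, with values of 0 drawn at the bottom. Epcam and Esrp1 stay highest, Fn1 climbs from under 0.4 TPM to above 20 TPM, and the 6 repressors stay below 1 TPM in every library.

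Among the repressors, Snai3, a SNAI family member less studied than its relatives, had the highest level in every group. Its values were 0.790 and 0.858 CPM in control, 0.552 and 0.530 CPM at the low dose and 0.481 and 0.384 CPM at the high dose, so the groups did not overlap and each dose lay lower than the last. Snai3 fell by 0.94 ± 0.27 on the log2 scale at the high dose (1.91-fold lower, edgeR adjusted p = 0.0121). The call was lost with DESeq2 (adjusted p = 0.0859) and without the second high-dose library (adjusted p = 0.0889). At the low dose its log2 fold change was -0.60 ± 0.25 (edgeR adjusted p = 0.0980), which did not pass.

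Snai1, the SNAI family repressor best known for silencing E-cadherin, had 6 and 3 counts in control, 9 and 7 at the low dose and 11 and 12 at the high dose. The control and high-dose libraries did not overlap, but no library exceeded 0.252 CPM, where 3 counts correspond to 0.0414 to 0.0687 CPM. Its log2 fold change at the high dose was 1.39 ± 0.50 (2.61-fold, edgeR adjusted p = 0.0325). This call depends on few reads: it was lost in 8 of 12 alternative analyses, among them DESeq2 (adjusted p = 0.192) and the fit without the second control library, which left 1.92-fold (edgeR adjusted p = 0.233), whereas leaving out the first control library gave 3.90-fold. At the low dose the log2 fold change was 0.53 ± 0.54 (edgeR adjusted p = 0.501), and between the doses it was 0.85 ± 0.45 (edgeR adjusted p = 0.128).

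Snai2, which marks neural crest and basal epithelial cells, had 8 and 8 counts in control, 2 and 2 at the low dose and 1 and 1 at the high dose. It did not pass the filter on low counts. Pooled over libraries and corrected for depth, control exceeded the high dose by a ratio of 7.70, with an exact 95% interval for counting error of 1.81 to 69.0, and exceeded the low dose by a ratio of 4.89, interval 1.58 to 20.1. With every gene of at least 1 count in the fit, its log2 fold change at the high dose was -2.82 (edgeR adjusted p = 0.0230) and at the low dose -2.21 (edgeR adjusted p = 0.0740), which did not pass.

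Zeb1, Zeb2 and Twist1 were at or near the floor. Zeb1 had 0 and 2 counts in control, 0 and 2 at the low dose and 0 and 0 at the high dose. Zeb2 had 1 and 1, then 1 and 2, then 0 and 1 counts. Twist1 had no counts in control, 5 and 3 at the low dose and 0 and 1 at the high dose, so its few reads sat mainly at the lower dose. No fold is given for these 3 genes. With every gene of at least 1 count in the fit none of them was called, the lowest edgeR adjusted p being 0.126, for Twist1 at the low dose against control.

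Fn1 had the greatest rise of the 6 tested genes. Control libraries held 0.628 and 1.82 CPM (31 and 91 counts), the low-dose libraries 119.9 and 134 CPM, and the high-dose libraries 239 and 203 CPM. The 3 groups did not overlap, and the control libraries differed between themselves more, in proportion, than the treated ones. Against control, Fn1 rose 103-fold at the low dose (log2 6.69 ± 0.22, edgeR adjusted p = 2.63e-08) and 180.1-fold at the high dose (log2 7.49 ± 0.22, edgeR adjusted p = 1.93e-09). The size rests on the few control reads: at the high dose it was 121.5-fold without the first control library and 344-fold without the second, at the low dose 69.0-fold and 198-fold, and log2(TPM + 1) in limma gave a log2 change of 5.01. From the low to the high dose it rose 1.74-fold (log2 0.80 ± 0.13, edgeR adjusted p = 6.13e-04), a call lost with DESeq2 (adjusted p = 0.217) and with limma on log2(TPM + 0.1) (adjusted p = 0.135).

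Among all tested genes, Fn1 ranked 109 from the highest log2 fold change at the low dose, 275 at the high dose and 2299 between the doses. By mean TPM it moved from rank 15383 of the 55416 genes in control to 4509 and then 2947.

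Vim went the opposite way. It had 4.09 and 5.74 CPM in control (202 and 288 counts), 1.503 and 1.81 CPM at the low dose and 0.229 and 0.345 CPM at the high dose (10 and 18 counts). The 3 groups did not overlap, and levels fell from control to the low dose and from the low to the high dose. Vim was 2.99-fold lower at the low dose (log2 -1.58 ± 0.21, edgeR adjusted p = 3.34e-04) and 16.7-fold lower at the high dose (log2 -4.07 ± 0.28, edgeR adjusted p = 8.14e-07). The higher dose lay 5.61-fold below the lower one (log2 -2.49 ± 0.31, edgeR adjusted p = 8.54e-05). Counted from the lowest log2 fold change, Vim ranked 52 of 16975 genes at the high dose, and its call was kept in 15 of 15 alternatives in each comparison. On log2(TPM + 1) in limma the change at the high dose was -1.83.

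Set against each other, Fn1 and Vim exchanged places. Per unit length, the TPM ratio of Fn1 to Vim was 0.0372 and 0.103 in control, 26.5 and 22.8 at the low dose and 208.7 and 179.7 at the high dose. Vim was thus the more abundant in each control library and Fn1 in each treated one. The log2 ratio, with 0.1 TPM added to each gene, was -3.42 ± 0.63 in control, 4.48 ± 0.13 at the low dose and 7.02 ± 0.15 at the high dose (SD, n = 2 each). The differences were 10.44 at the high dose against control, 7.90 at the low dose against control and 2.53 between the doses. Each two-sided exact permutation p was 0.333, the smallest that 2 against 2 libraries can give. Vim was listed at 0.20 TPM in both high-dose libraries, although its counts there were 10 and 18. That level is close to the 0.1 TPM added, so the high-dose ratio and its small SD rest on few Vim reads.

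**Figure D2:**
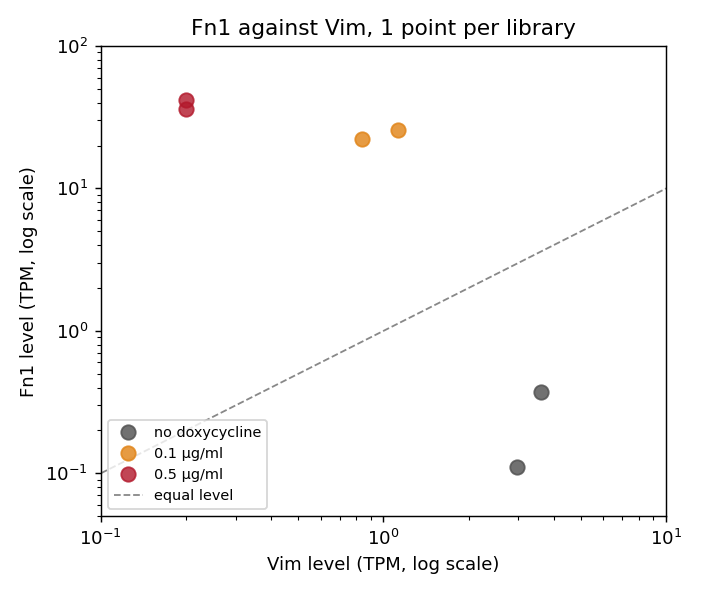
Fn1 against Vim in TPM (log axes), 1 point per library coloured by dose, with a dashed line of equal level. The control libraries lie at 2.96 and 3.60 TPM of Vim with under 0.4 TPM of Fn1, and the high-dose libraries at 0.20 TPM of Vim with 41.74 and 35.94 TPM of Fn1.

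Read against the repressors, Fn1 rose at the low dose while neither tested repressor, Snai1 or Snai3, was called there. Snai1 had only 9 counts in control and 16 at the low dose, so its test could miss a change. The other repressors fell below the count filter. From control to the low dose their pooled counts went from 16 to 4 for Snai2 and from 0 to 8 for Twist1. Zeb1 had 2 in each group, and Zeb2 went from 2 to 3. Whether a repressor changed before Fn1 was not tested. At the high dose Snai1, whose call was lost in 8 of 12 alternatives, reached 0.19 and 0.18 TPM, against 41.74 and 35.94 TPM for Fn1. In order of mean TPM, control ran Epcam (616), Esrp1 (55.6), Vim (3.28), Snai3 (0.67), Fn1 (0.24), Snai2 (0.10) and Snai1 (0.075), with Snai2 and Snai1 touching in their ranges, and Zeb1, Zeb2 and Twist1 below. At the low dose Fn1 (24.0) stood in the place below Esrp1 (59.1), ahead of Vim (0.985) and Snai3 (0.425). At the high dose Vim (0.20) lay below Snai3 (0.33) and beside Snai1 (0.185). The range of Vim did not overlap that of Snai3 there.

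Epcam, the epithelial surface protein, was among the most abundant transcripts, with 788 and 781 CPM in control, 702 and 695 CPM at the low dose and 581 and 596 CPM at the high dose. The groups did not overlap, and pairs of replicates differed by far less than the groups. It fell by 0.17 ± 0.04 on the log2 scale at the low dose (edgeR adjusted p = 5.74e-03) and by 0.42 ± 0.04 at the high dose (1.33-fold lower, edgeR adjusted p = 4.48e-06). The step between the doses was -0.25 ± 0.04 (edgeR adjusted p = 2.55e-04). Each of these calls was kept in 15 of 15 alternatives.

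Esrp1 moved in the other direction, with 159 and 160.1 CPM in control, 174 and 174 CPM at the low dose and 237 and 229 CPM at the high dose. It rose 1.46-fold at the high dose (log2 0.55 ± 0.04, edgeR adjusted p = 1.20e-06) and by 0.42 ± 0.04 on the log2 scale between the doses (edgeR adjusted p = 1.26e-05). At the low dose its log2 change of 0.12 ± 0.04 just passed (edgeR adjusted p = 0.0363), and the call was lost in 15 of 15 alternatives, with adjusted p from 0.0579 to 0.225. The epithelial pair thus split in direction.

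**Figure D3:**
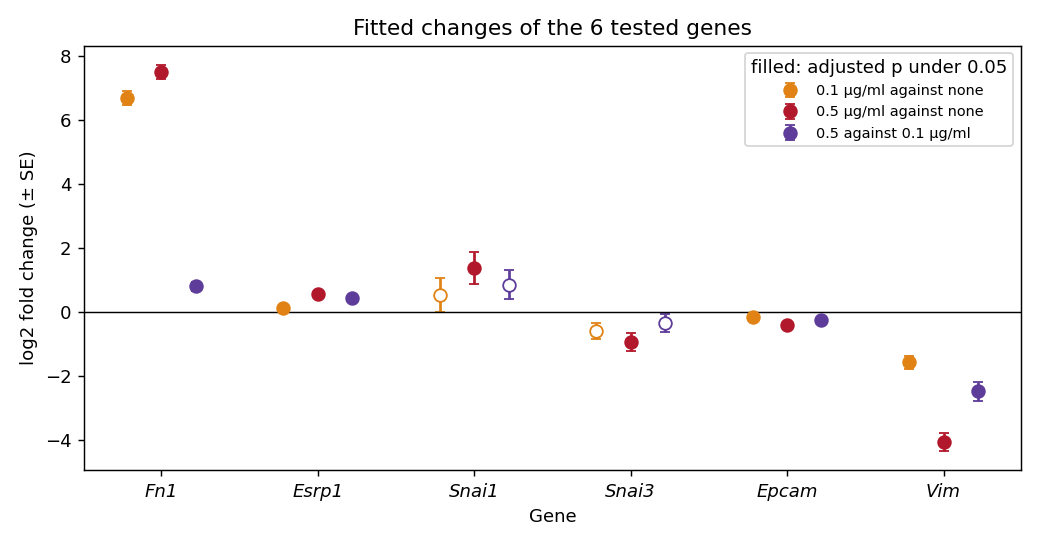
Fitted log2 fold changes of the 6 tested genes with standard errors, for the 3 comparisons between dose groups. Fn1 reaches 7.49 and Vim -4.07 at the high dose against control, and Epcam and Esrp1 lie within 0.6 of 0.

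Genes were ranked by how far their course over the 6 libraries lay from that of Fn1. The measure was the root mean square difference in log2(CPM + 0.1) relative to control, among 13554 candidates. The nearest were Avil, an actin-binding villin relative (0.437), Tff1, a gastric trefoil peptide (0.585), and Sema5b, a semaphorin (0.601). Mean Sema5b was 0.00997 CPM in control and 25.7 CPM at the high dose, so its control value on this scale is set mostly by the 0.1 added. Mean Avil was 1.304, 141 and 399.7 CPM in the control, low-dose and high-dose groups. The genes most like Vim were Ttr, the thyroxine carrier transthyretin (0.0891), Kif12, a kinesin (0.199), and Reg3b, an antimicrobial lectin (0.213). Mean Ttr was 32.1, 11.8 and 2.43 CPM.

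Other genes of the transition were described in 8 lists. Each list is given by its counts and its median log2 fold change at the high dose against control. The median over all tested genes was -0.00. Of all tested genes, 34.4% were called higher and 33.1% lower at the high dose, and 20.8% and 13.8% at the low dose. A list count near these shares is no result about that list.

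Of 13 other transition-inducing transcription factors 9 were tested, and 4 were higher (Foxc1, Foxc2, Hmga2 and Klf8), 4 lower (Sox4, Tcf3, Tcf4 and Tcf12) and 1 not called (Prrx1), with a median of -0.53. The Foxc1 call was lost in 7 of 12 alternatives, and Hmga2 in 2 of 15. Klf8, a repressor of the Krüppel-like family, went from 0.0605 CPM in control to 2.03 and 14.4 CPM (229-fold at the high dose, edgeR adjusted p = 3.19e-09). The size of this fold rests on few control reads, as 3 counts correspond to 0.0608 and 0.0598 CPM in the control libraries. Over 15 alternatives it ran from 4.75-fold to 339-fold. Sox4, a high-mobility-group factor, went from 131 to 65.6 and 31.1 CPM (4.22-fold lower, edgeR adjusted p = 1.21e-07). The basic helix-loop-helix factor Tcf12 was 1.64-fold lower. The low dose left 3 higher (Prrx1, Foxc2 and Klf8) and 4 lower (Sox4, Tcf3, Tcf4 and Tcf12), with Foxc2 lost in 8 of 11 alternatives and Prrx1 without the first low-dose library.

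Of 8 tested corepressors that SNAI and ZEB proteins recruit, 3 were higher and 3 lower, with a median of 0.07. The higher ones were Ctbp2 (1.72-fold, edgeR adjusted p = 1.02e-07), Hdac1, a histone deacetylase (1.46-fold), and Kdm1a, the histone demethylase LSD1 (1.38-fold). The lower ones were Rcor1, Ctbp1 and Ezh2.

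Genes listed as epithelial transcription and splicing factors were mostly higher. Of 13 tested, 10 were higher (Esrp2, Grhl1, Grhl2, Grhl3, Ovol1, Ovol2, Elf3, Ehf, Foxa1 and Rbfox2) and 3 lower (Foxa2, Foxa3 and Rbm47), with a median of 0.68. Rbfox2, whose own change is that median, is a splicing factor not particular to epithelium. Grhl1, a grainyhead factor of epithelial barriers, had 3.97 and 3.69 CPM in control, 6.72 and 8.42 CPM at the low dose and 32.8 and 31.9 CPM at the high dose. It rose 8.44-fold (edgeR adjusted p = 7.35e-09), and Grhl3 rose 3.10-fold. The forkhead factor Foxa2 was 3.63-fold lower (edgeR adjusted p = 7.54e-06). Already at the low dose, 5 of the 13 were higher (Grhl1, Ovol1, Ovol2, Elf3 and Ehf) and 2 lower (Foxa2 and Foxa3).

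Of 27 epithelial adhesion and polarity genes, 20 were higher at the high dose, 3 lower (Cldn7, Krt18 and Prss8) and 4 not called (Ocln, Tjp3, Lsr and Spint2), with a median of 0.52. The low dose gave 18 higher and 2 lower (Krt18 and Prss8), but 13 to 17 higher in the alternatives, with Tjp3 lost in 15 of 15 and Patj in 9 of 15. Cldn4, a claudin of the tight junction, rose 3.37-fold, and F11r, a junctional adhesion molecule, rose 3.24-fold. Cdh1, which encodes E-cadherin, the classic target of the SNAI and ZEB repressors, had mean levels of 751, 748 and 877 CPM and was 0.22 ± 0.04 higher on the log2 scale at the high dose (edgeR adjusted p = 3.38e-04). The simple-epithelium keratin partners split, Krt8 rising 2.71-fold and Krt18 being 1.83-fold lower.

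**Figure D4:**
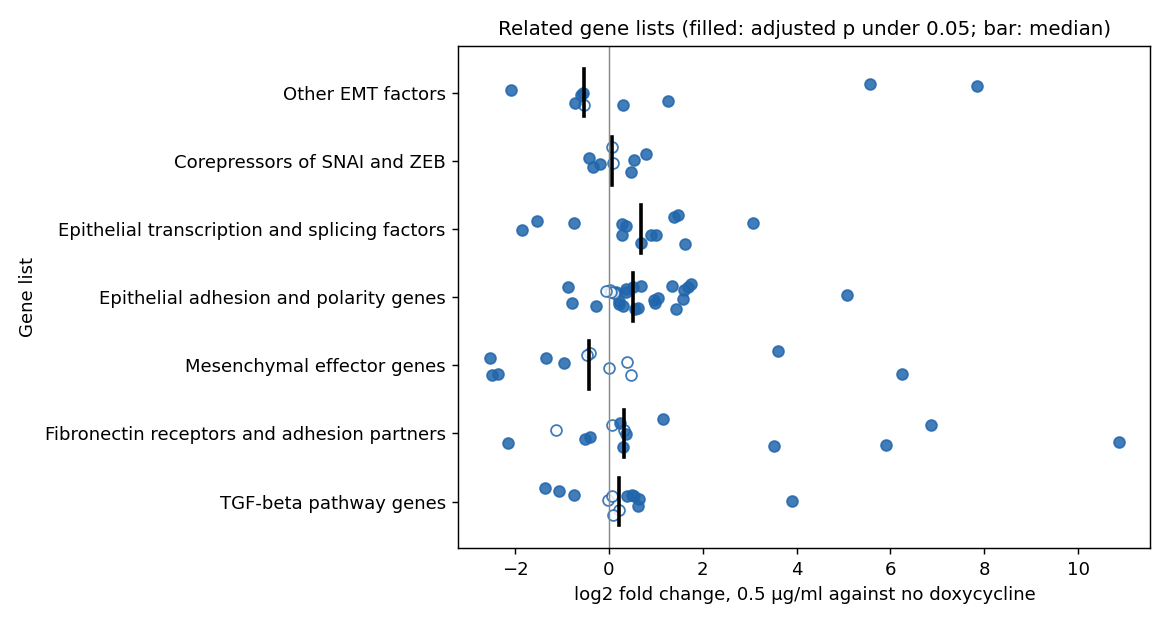
Fitted log2 fold changes at the high dose against control for the tested genes of 7 lists, 1 point per gene, filled where called, with a bar at the median of each list. The epithelial lists have medians of 0.68 and 0.52, and the mesenchymal effectors -0.43.

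Of 23 mesenchymal effector genes, 12 had enough reads to be tested. At the high dose 2 were higher (S100a4 and Nes), 5 lower (among them Mmp14, Lgals1, Tgfbi and Axl) and 5 not called (Cdh2, Cdh11, Tagln, Thbs1 and Loxl2), with a median of -0.43. S100a4, a calcium-binding protein also called fibroblast-specific protein, went from 0.252 CPM in control to 2.12 and 19.2 CPM (75.6-fold, edgeR adjusted p = 1.07e-08). Nes, the intermediate filament nestin, rose 12.1-fold to 5.63 CPM. Mmp14, a membrane-bound metalloproteinase, had 28.1 and 28.9 CPM in control, 14.3 and 15.5 CPM at the low dose and 4.79 and 5.01 CPM at the high dose, 5.81-fold lower (edgeR adjusted p = 2.51e-09). Against control, the low dose had 3 higher (S100a4, Tgfbi and Nes) and 5 lower (among them Cdh2, Mmp14, Lgals1 and Thbs1). The Tgfbi call was lost at the high dose without the first control or the second high-dose library, and at the low dose in 7 of 13 alternatives.

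Fn1 binds cells through integrins and their adhesion partners, and 14 of 15 such genes were tested. At the high dose 8 were higher, 3 lower (Sdc4, Tgm2 and Pxn) and 3 not called (Itga4, Itga5 and Itgb1), with a median of 0.32. Tns1, tensin, which links integrins to actin, had 0.263 and 0.219 CPM in control, 58.8 and 61.5 CPM at the low dose and 454 and 459 CPM at the high dose. Its fitted rise was 1874-fold at the high dose (edgeR adjusted p = 1.41e-12), from few control reads. Fermt2, the integrin activator kindlin, rose 59.7-fold to 9.13 CPM, and Plaur, the urokinase receptor, rose 11.5-fold to 129 CPM. Itgav, the alpha subunit of several fibronectin-binding integrins, rose 2.21-fold, while Tgm2, a transglutaminase that crosslinks fibronectin, was 4.43-fold lower. Of the 14, at the low dose 7 were higher and 3 lower (Itga5, Sdc4 and Tgm2), and 3 to 7 higher in the alternatives.

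**Figure D5:**
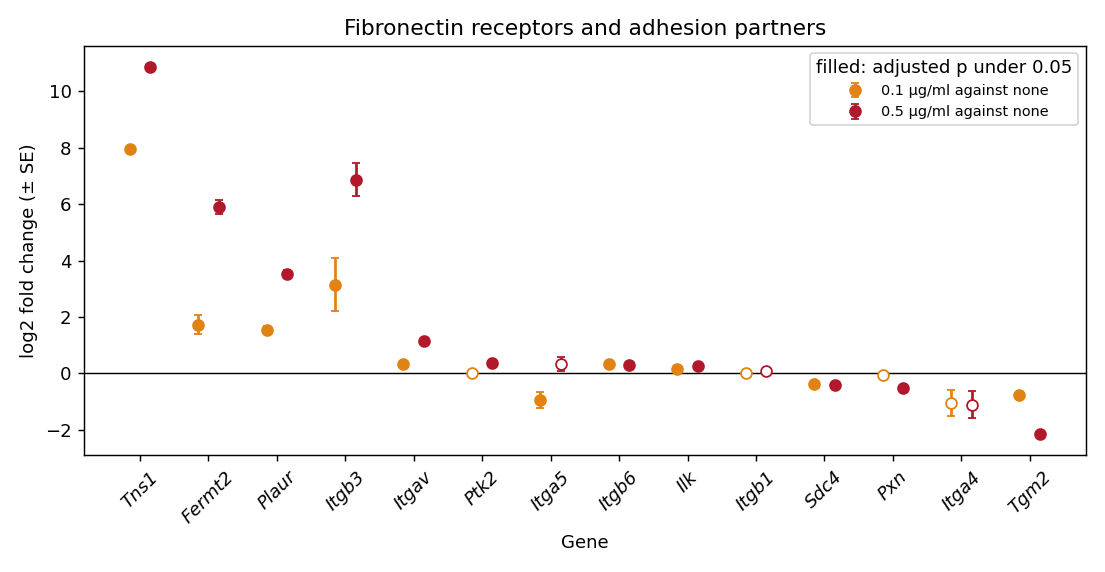
Fitted log2 fold changes with standard errors of the 14 tested fibronectin receptors and adhesion partners, low dose (0.1 µg/ml) and high dose (0.5 µg/ml) each against control, filled where called. Tns1 reaches 10.87 and Tgm2 -2.15 at the high dose, and the wide error of Itgb3 comes with 0 and 1 control counts.

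The transforming growth factor beta pathway is a textbook inducer of SNAI and ZEB genes and of Fn1. Of its 15 genes 13 were tested, and at the high dose 6 were higher, 3 lower (Tgfb1, Tgfbr1 and Smad3) and 4 not called (Tgfbr3, Smad2, Smad4 and Skil), with a median of 0.21. The share called in either direction was near the 67.5% over all tested genes. The type I receptor Tgfbr1 was 2.57-fold lower (edgeR adjusted p = 7.86e-08) and the signal transducer Smad3 was 1.67-fold lower, while the ubiquitin ligase Smurf2 rose 1.57-fold and the type II receptor Tgfbr2 rose 1.41-fold. In the low-dose group 3 were higher (Tgfbr2, Tgfbr3 and Ski) and 2 lower (Tgfbr1 and Smad3), but the Ski call was lost in 15 of 15 alternatives, which left 1 to 2 higher. The 6 gene entries of miR-200 and miR-205, which repress the ZEB genes, had 0 counts in all libraries; poly-A libraries of this kind are not made to measure microRNAs.

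Because Fn1 and Vim are stromal products in the intact gut, markers of other cells were set beside them. In bulk RNA, fewer cells of a type and less RNA per cell cannot be told apart. The summed level of 7 fibroblast markers was 1.17 and 1.296 CPM in control, 0.993 and 0.815 CPM at the low dose and 2.43 and 3.01 CPM at the high dose. Only Dcn and Pdgfrb among them had enough reads to be tested. Pdgfrb, a receptor of stromal cells, was 4.71-fold lower at the high dose. Dcn, the matrix proteoglycan decorin, had 0 counts in control and made up 1.49 and 2.07 CPM of the high-dose sums. At the low dose neither passed the test.

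The 7 immune markers summed to 4.35 to 4.62 CPM in control, 6.76 to 7.11 CPM at the low dose and 14.5 to 15.1 CPM at the high dose, with Adgre1 at 0 in every library, and Cd68 made up 13.7 and 13.2 CPM of the last. The 5 endothelial markers summed to 0.709 to 0.957, 2.20 to 2.43 and 4.47 to 4.90 CPM, with Cdh5 at 0 throughout. The 4 smooth muscle markers stayed under 0.4 CPM, with Lmod1 at 0. The 6 glial and neuronal markers went from 1.58 to 1.94 CPM in control to 1.14 to 1.41 and 0.527 to 0.614 CPM. The part of such cells in the changes of Fn1 and Vim was not tested. The 8 intestinal epithelial markers were all detected and summed to 2747 to 3308 CPM across the 6 libraries. That sum hides opposite changes. At the high dose 5 were called lower (Cdx1, Cdx2, Fabp2, Muc2 and Lgr5) and 3 higher (Vil1, Krt20 and Lgals4). Their median log2 fold change was -1.51, and 67.5% of all tested genes were called there.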

How the data were processed

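Poly-A RNA of 6 organoid libraries was sequenced from a strand-specific MGI kit with 100 bp paired reads, per the labels' protocols. RSEM 1.3.3, STAR 2.7.3a, Trim Galore and FastQC appear in the submitters' processing notes, which list GRCm39 as well as mm10 without a role for either, so gene coordinates are not given. One deposited table holds expected counts from RSEM, which can be fractional, and the other deposited table holds TPM, which is scaled per transcript length to a fixed total and keeps no depth. RSEM shares ambiguous reads between genes, and no source used here states whether strand was used in counting, so genes with near-identical copies or overlapping antisense genes are uncertain.

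Expected counts were rounded. GENCODE M21 gave symbols for 52083 of 55416 identifiers (94.0%). edgeR 4.0.16 (R 4.3.3) with filterByExpr by group kept 16975 genes, which hold 99.96% of the counts, scaled libraries by TMM (factors 0.964 to 1.04) and fitted all 6 libraries in 1 quasi-likelihood model with 3 residual degrees of freedom. Tests were two-sided with Benjamini-Hochberg adjustment at 0.05, and CPM is TMM-scaled. The fitting procedure was tested on simulated data. These left out genes with few expected counts, so the test does not cover genes as low as Snai1. They also held a far smaller share of changed genes than was called here at the high dose. Promoter windows come from RefSeq.

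Alternatives were DESeq2 1.42.0, 2 other scalings, 2 other count filters, limma 3.58.1 on log2(TPM + 1) and log2(TPM + 0.1), fits of the compared groups alone, a replicate block, and each library left out. The 10 genes and the gene lists were chosen with earlier results of these data known. From each list, the 3 called genes with the greatest absolute change at the high dose and at least 5 CPM in a group were named, apart from some that are not reported here; the genes most like Fn1 and Vim are the 3 nearest for each. Genes spelled out because a count was small, and Cdh1, Krt8, Krt18, Itgav, Tgm2, Tgfbr2 and the epithelial factors called higher, were chosen after their values were seen.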

Additional observations from a re-analysis of the deposited data

How the results depend on the processing

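No alternative reversed the direction of any of the 6 tested genes of the 10 in any comparison. Of the alternatives for these single genes, 224 kept the call or its absence and 27 lost a call. All 27 were for Snai1, Snai3, the Esrp1 change at the low dose and the Fn1 difference between doses. In the other lists, 77 genes were called at the high dose against control, of which 68 kept the call in each alternative that tested them, and 60 at the low dose, of which 39 did, with no sign reversed in either comparison. The 9 that lost a call at the high dose in some alternative were Foxc1, Hmga2, Esrp2, Foxa1 (without the first high-dose library), Ap1m2, Cldn3, Itgb6, Smad7 and Tgfbi. Genes near 0 in control had smaller log2 changes on log2(TPM + 1), such as 5.93 in place of 10.87 for Tns1. The high dose differed from control in 8878 to 12249 genes, from the low dose in 7401 to 10474, and the low dose from control in 3505 to 6396. For the last, limma on log2(TPM + 1) and log2(TPM + 0.1), which test fewer genes, gave 3505 and 3508, and leaving out a library gave 3800 (without the first low-dose library) to 5248. The difference in the Fn1 to Vim log2 ratio per library, from TPM or CPM with a pseudocount, ranged over 6.84 to 11.24, 5.45 to 8.35 and 1.39 to 2.99 in the comparisons of the high dose with control, the low dose with control and the doses.

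Replicate numbers match across groups in the labels, but nothing says what a shared number marks, and same-numbered libraries deviated together by correlations of -0.110, 0.114 and -0.0167. With the replicate number as a block, 11162, 5265 and 9607 genes were called at the high dose, at the low dose and between the doses, and Snai1 at the high dose (edgeR adjusted p = 0.0536) and Esrp1 at the low dose (edgeR adjusted p = 0.0596) were no longer called. Depth limits the SNAI, ZEB and TWIST genes most, with fewer than 50 counts in any library. The Fn1 fold is limited by its 31 and 91 control counts.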
